A study of Mus musculus with 9 samples.

Results

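The SOX genes Sox1, Sox2, Sox3, Sox4, Sox6, Sox8, Sox9, Sox10, Sox11 and Sox21 were followed through 3 kinds of purified mouse primary culture. They were taken by gene symbol and by no cut on their values, although earlier results of these data were known. They are 10 of the 24181 genes obtained when read counts per RefSeq transcript were added up per gene. All 10 had enough counts in the glial libraries to be tested.

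The groups were Astrocytes, from the cortex of newborn mice between postnatal days 1 and 3 and kept about 21 days in culture, until they covered the dish; DRG, neurons of the dorsal root ganglia (the sensory ganglia along the spinal cord) of E13.5 embryos, kept about 2 weeks; and OPC, oligodendrocyte progenitor cells from the cortex of pups between postnatal days 6 and 9, kept 6 to 7 days. Both sexes were used for the glial cultures, and the labels name no strain, genotype or treatment. Each group had 3 libraries from biological replicate experiments, all made with a stranded poly(A) mRNA kit. No comparison held the age of the donors or the days in culture equal, and DRG came from another tissue than the glia, so that these and cell type cannot be told apart.

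SOX proteins bind DNA through an HMG box, a domain that enters the minor groove and bends the helix, and most of them need a partner factor at their sites. They fall into subgroups by the sequence of that box. The SoxB1 genes Sox1, Sox2 and Sox3 keep neural progenitors undifferentiated, and Sox21, a SoxB2 gene, represses targets that SoxB1 factors activate. The SoxE genes Sox8, Sox9 and Sox10 act in glia: Sox9 in the onset of gliogenesis and in astrocytes, Sox10 in the oligodendrocyte lineage and in the neural crest, from which DRG neurons, satellite glia and Schwann cells come. The SoxC genes Sox4 and Sox11 are active in immature neurons, and Sox6, a SoxD gene without an activation domain of its own, modulates SoxE activity in oligodendrocyte precursors.

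The coding DNA of the core of the HMG box is shown because the SoxB, SoxC, SoxD and SoxE groups can be read from it. It does not set the SoxB2 gene Sox21 apart from the SoxB1 genes. Each line holds 60 bases, 5′ to 3′ on the coding strand, from GENCODE vM21 transcripts on GRCm38, and capitals mark bases that differ from Sox2.
Sox2 (chr3:34650548-34650607, plus strand): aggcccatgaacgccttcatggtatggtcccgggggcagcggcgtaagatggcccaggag
Sox1 (chr8:12396517-12396576, plus strand): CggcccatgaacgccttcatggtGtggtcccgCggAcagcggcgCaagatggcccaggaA
Sox3 (chrX:60892936-60892995, minus strand): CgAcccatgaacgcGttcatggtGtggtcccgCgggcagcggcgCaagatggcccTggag
Sox21 (chr14:118235549-118235608, minus strand): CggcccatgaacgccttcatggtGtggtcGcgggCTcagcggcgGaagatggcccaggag
Sox4 (chr13:28952782-28952841, minus strand): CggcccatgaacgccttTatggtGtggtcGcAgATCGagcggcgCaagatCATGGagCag
Sox11 (chr12:27342199-27342258, minus strand): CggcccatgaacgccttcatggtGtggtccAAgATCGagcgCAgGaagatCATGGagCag
Sox8 (chr17:25570163-25570222, minus strand): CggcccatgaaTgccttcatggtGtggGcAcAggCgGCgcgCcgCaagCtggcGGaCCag
Sox9 (chr11:112782903-112782962, plus strand): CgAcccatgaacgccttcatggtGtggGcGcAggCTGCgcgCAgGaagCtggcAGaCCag
Sox10 (chr15:79163342-79163401, minus strand): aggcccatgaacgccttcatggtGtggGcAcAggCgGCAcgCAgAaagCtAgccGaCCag
Sox6 (chr7:115489703-115489762, minus strand): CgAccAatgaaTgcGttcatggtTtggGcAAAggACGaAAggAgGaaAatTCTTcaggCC
Sox1, Sox3 and Sox21 differed from Sox2 at 6, 7 and 6 of these 60 bases. Sox4 and Sox11 differed at 16 and 17, Sox8, Sox9 and Sox10 at 16, 18 and 16, and Sox6 at 24. Over the 237 bases (79 codons) of the whole box, Sox1, Sox2, Sox3 and Sox21 were 86.9 to 89.5% identical to each other, Sox4 and Sox11 89.5%, and the 3 SoxE genes 81.4 to 85.2%. Sox6 was 53.2 to 60.3% identical to the others. The longest run shared without a mismatch by any pair was 48 bases, in Sox4 and Sox11.

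The promoters of Sox1, Sox2 and Sox21 are shown because these SoxB genes were low in DRG against both glial groups. Each is the 250 bases before the RefSeq start of the gene on GRCm38.p6, 5′ to 3′ on the gene's strand.
Sox1 (chr8:12395269-12395518, plus strand): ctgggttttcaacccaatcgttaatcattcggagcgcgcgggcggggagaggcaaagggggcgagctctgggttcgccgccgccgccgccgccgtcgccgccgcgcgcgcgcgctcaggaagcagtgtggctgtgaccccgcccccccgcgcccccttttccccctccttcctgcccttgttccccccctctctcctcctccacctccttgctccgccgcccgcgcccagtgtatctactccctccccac
Sox2 (chr3:34649745-34649994, plus strand): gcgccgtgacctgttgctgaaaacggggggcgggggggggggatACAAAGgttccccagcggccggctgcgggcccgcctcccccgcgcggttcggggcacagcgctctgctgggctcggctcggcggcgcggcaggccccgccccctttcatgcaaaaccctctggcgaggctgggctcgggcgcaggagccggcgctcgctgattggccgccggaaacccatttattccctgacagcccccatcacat
Sox21 (chr14:118237031-118237280, minus strand): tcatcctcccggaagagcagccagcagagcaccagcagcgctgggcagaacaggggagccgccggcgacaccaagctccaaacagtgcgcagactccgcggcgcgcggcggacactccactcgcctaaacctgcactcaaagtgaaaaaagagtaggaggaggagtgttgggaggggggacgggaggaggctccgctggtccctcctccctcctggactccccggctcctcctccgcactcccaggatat
Capitals mark the only match, in Sox2, to the SOX motifs searched, ACAAT and ACAAAG on both strands. Of all 32851 windows of 250 bases in the RefSeq table, 38.8% held a match. The windows of Sox1, Sox2 and Sox21 held 29, 27 and 17 CpG pairs, where the median of all windows was 6, and 71.2, 72 and 65.2% G or C, where the median was 52.4%. Windows were matched for 7 of the 10 members, all but Sox3, Sox9 and Sox10. Those of Sox4, Sox8 and Sox11 held no match and 11, 18 and 17 CpG pairs. All 6 windows of Sox6 held at least 1 match, and 1 to 10 CpG pairs. Sox11, with as many CpG pairs as Sox21, was lower in DRG than in OPC and did not pass against Astrocytes. A link between these windows and the levels was not tested.

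Assigned reads ran from 30710093 to 53594210 per library. Each culture held high levels of its own markers: the astrocyte list (led by Gfap and Aqp4) summed to 6613 to 8258 CPM in Astrocytes, the OPC list (led by Olig1 and Ptprz1) to 7152 to 10864 in OPC, and the sensory neuron list (led by Avil and P2rx3) to 6618 to 6713 in DRG. Levels are CPM, read counts per 1000000 assigned reads, with library sizes adjusted by TMM factors. The astrocyte list also summed to 1232 to 1435 CPM in DRG and 916 to 1145 in OPC. S100b averaged 708 CPM in DRG and 50.3 in Astrocytes, and Aldoc 573 and 361, while 8 of its 10 genes were called lower in DRG. The OPC list summed to 1595 to 2524 CPM in Astrocytes and 23.0 to 32.3 in DRG. Its gene Lhfpl3 averaged 2.98 CPM in DRG and 0.0927 in OPC, while 9 of 10 were called lower in DRG. Prph, a sensory neuron gene, had 0 counts in all 9 libraries; it has 3 accessions, and reads shared by the isoforms of a gene were not assigned. Libraries of 1 group differed in markers of other cells: Astrocytes replicate 1 had 2867 CPM of microglia genes (496 and 462 in replicates 2 and 3), 1707 of ependymal genes (218 and 609) and 1154 of fibroblast and mural genes (8257 and 9747). OPC replicate 3 had 211 CPM of microglia genes, where OPC replicates 1 and 2 had 18.2 and 57.3.

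Most of the SOX genes were lowest in DRG neurons, and the glial cultures differed in which of them were highest. In DRG against Astrocytes, Sox10 was higher, 8 members were lower and Sox11 did not pass the test, where 60.2% of all 14848 genes tested passed in either direction, 27.4% higher and 32.8% lower. In DRG against OPC all 10 members were lower, where 59.5% of genes passed, 28.4% higher and 31.1% lower. In OPC against Astrocytes, Sox3, Sox4, Sox8, Sox10 and Sox11 were higher, Sox1 and Sox21 lower, and Sox2, Sox6 and Sox9 did not pass, where 51.8% of genes passed, 26.3% higher and 25.5% lower. The test was edgeR's quasi-likelihood F-test, with p-values adjusted by Benjamini-Hochberg over all genes tested and a threshold of 0.05. The median log2 difference of the members was −7.36 in DRG against Astrocytes (all genes −0.13), −8.11 in DRG against OPC (all genes −0.08) and 0.94 in OPC against Astrocytes (all genes 0.09). The 2 comparisons with DRG share its 3 libraries. Sox1, Sox6 and Sox21, with 0 or 1 counts in each DRG library, were tested only because of their glial counts. Sox3 and Sox8 did not reach the minimum count of 10 in every DRG library. Such genes could hardly be called other than lower in DRG, which favours lower calls in these counts and medians. The same holds for genes of the partner and target lists below that were near 0 in DRG. The groups did not overlap for 9, 10 and 8 of the 10 members in these comparisons, where the same held for 69%, 67.4% and 61.3% of all genes tested.

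**Figure D1:**
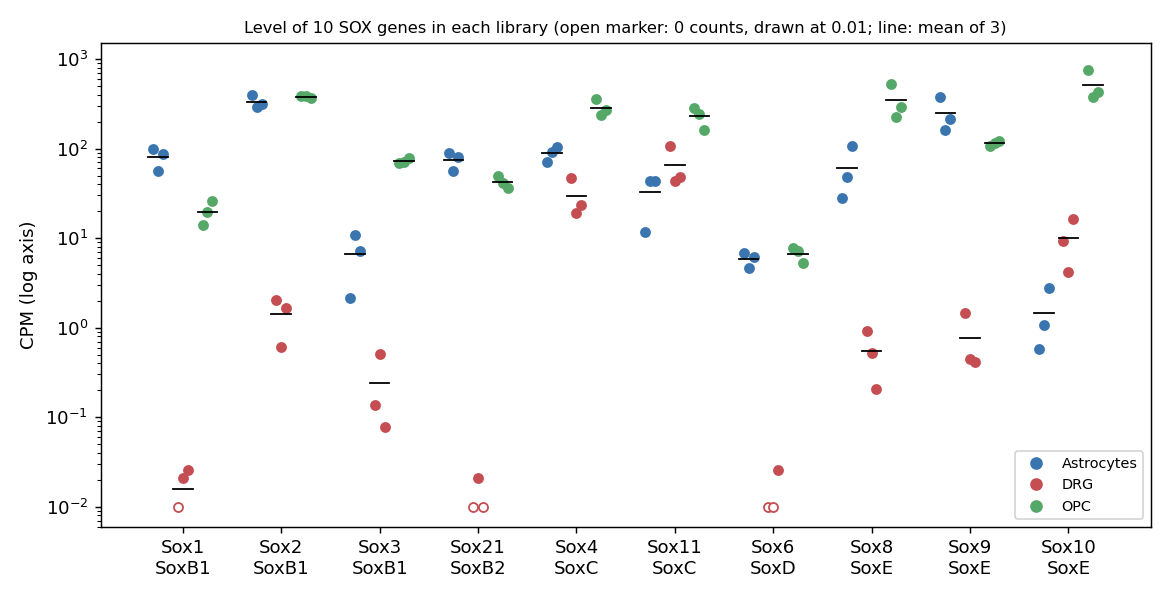
Level of each SOX gene in each of the 9 libraries, in CPM on a log axis, with genes grouped by subgroup and a line at the mean of 3 libraries; an open marker is a library with 0 counts. The DRG libraries lie below all glial libraries for every gene shown except Sox10 and Sox11.

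Sox2, the SoxB1 factor that keeps neural progenitors and glial precursors undifferentiated, lies in a single exon on chromosome 3 (34649995 to 34652461, plus strand). It had 396, 295 and 313 CPM in Astrocytes replicates 1 to 3, 2.03, 0.611 and 1.68 in DRG and 384, 389 and 372 in OPC. All 6 glial libraries were far above the DRG libraries, and the glial groups overlapped. Sox2 was 235-fold lower in DRG than in Astrocytes (log2 −7.88, SE 0.46, adjusted p = 2.48e-06) and 269-fold lower than in OPC (log2 −8.07, SE 0.46, adjusted p = 3.15e-06). Between OPC and Astrocytes the difference was 0.19 on the log2 scale (SE 0.33, adjusted p = 0.658). In such bulk libraries fewer cells of a type and less RNA per cell cannot be told apart.

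Sox1, a SoxB1 gene of early neural progenitors, is a single exon on chromosome 8 (12395519 to 12399555, plus strand). Its levels were 98.9, 55.9 and 87.5 CPM in Astrocytes and 14.0, 19.4 and 25.8 in OPC, and its counts in the DRG libraries were 0, 1 and 1. No library of a group reached the range of another group. Counts per TMM-adjusted library size were 4745 times as high in Astrocytes as in DRG (95% counting interval 1313 to 39185, adjusted p = 1.02e-06) and 1133 times as high in OPC as in DRG (313 to 9359, adjusted p = 2.7e-06). Counting intervals cover counting error only. OPC were 4.09-fold lower than Astrocytes (log2 −2.03, SE 0.32, adjusted p = 0.000835).

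Sox3, the X-linked SoxB1 gene (chromosome X, 60891366 to 60893430, minus strand, a single exon), had the opposite order in the glia. It had 2.16, 10.8 and 7.27 CPM in Astrocytes, 0.135, 0.505 and 0.0775 in DRG and 69.5, 70.3 and 77.8 in OPC. The 3 groups did not overlap, and Astrocytes replicate 1 was the lowest glial library. OPC were 10.8-fold above Astrocytes (log2 3.43, SE 0.65, adjusted p = 0.00214). In DRG it was 26.4-fold lower than in Astrocytes (adjusted p = 0.000539) and 285-fold lower than in OPC (adjusted p = 4.72e-05), values that became 62.5-fold and 678-fold without DRG replicate 2, which held 24 of the 31 counts in DRG.

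Sox21, a SoxB2 repressor that promotes the exit of progenitors from the cell cycle, is a single exon on chromosome 14 (118233233 to 118237030, minus strand). It was measured at 88.7, 55.8 and 81.6 CPM in Astrocytes and 49.1, 41.4 and 36.4 in OPC, and its DRG counts were 0, 1 and 0. Every Astrocytes library was above every OPC library, and both were far above DRG. Counts per TMM-adjusted library size were 8820 times as high in Astrocytes as in DRG (95% counting interval 1583 to 348421, adjusted p = 6.24e-07) and 4906 times as high in OPC (880 to 193827, adjusted p = 1.37e-06). Without DRG replicate 2, which held the single count, Sox21 was at least 1734-fold lower in DRG than in Astrocytes and at least 965-fold lower than in OPC, against a floor of 3 counts over the remaining DRG libraries. OPC were 1.78-fold lower than Astrocytes (log2 −0.83, SE 0.27, adjusted p = 0.0277), and this call was lost without Astrocytes replicate 1 (adjusted p = 0.0694), Astrocytes replicate 3 (0.091) or OPC replicate 2 (0.0858).

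Within SoxB1, Sox2 held most of the message in both glial types, and the minor member changed from Sox1 to Sox3. As shares of the summed CPM per kilobase of transcript, Sox2 took 89.0 ± 1.29% in Astrocytes and 82.6 ± 1.53% in OPC (mean ± SD, n = 3). Sox1 took 9.07 ± 1.66% in Astrocytes and 1.82 ± 0.542% in OPC, and Sox3 1.92 ± 1.39% and 15.6 ± 1.03%. In DRG the subgroup summed to 0.819 CPM per kilobase, where it was 183 in Astrocytes and 225 in OPC, and its shares there rested on few counts: Sox2 took 54.4% in DRG replicate 2, 93.8% in replicate 1 and slightly more in replicate 3.

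Long non-coding RNAs run over the Sox1 and Sox2 loci on the same strand without sharing exons with these genes in GENCODE. Sox1ot had 33.7, 21.8 and 17.7 counts per 100 Sox1 counts in Astrocytes, and 1.91, 1.16 and 0.56 in OPC. The ratio was thus higher in each Astrocytes library than in each OPC library. Sox1ot itself fell by 6.56 on the log2 scale from Astrocytes to OPC (adjusted p = 3.73e-05), where Sox1 fell by 2.03, and no test was made of the ratio. Sox2ot had 13.2, 8.47 and 9.58 counts per 100 Sox2 counts in Astrocytes and 5.53, 5.41 and 2.8 in OPC. Its own level was lower in OPC (log2 −1.02, adjusted p = 0.0402), but it did not pass when any single library other than Astrocytes replicate 2 was left out (adjusted p from 0.0518 to 0.144). Sox2ot had 3 to 5 counts in each DRG library.

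**Figure D2:**
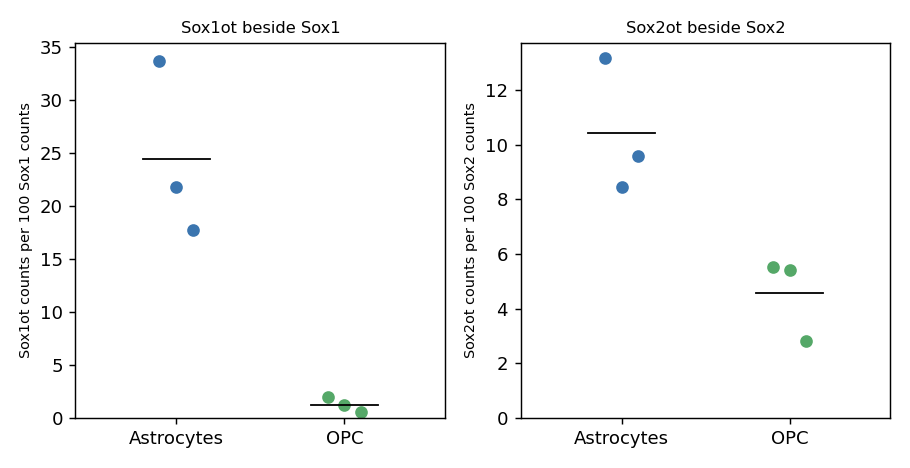
Counts of Sox1ot per 100 counts of Sox1 (left) and of Sox2ot per 100 counts of Sox2 (right) in each Astrocytes and OPC library, with a line at the mean of 3; DRG, with 0 or 1 Sox1 counts, is not drawn. Astrocytes lie at 17.7 to 33.7 and OPC at 0.56 to 1.91 for Sox1ot, and at 8.47 to 13.2 and 2.8 to 5.53 for Sox2ot.

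Sox9, the SoxE factor that starts gliogenesis and stays on in astrocytes, has 3 exons on chromosome 11 (112782210 to 112787757, plus strand). Its levels were 382, 161 and 217 CPM in Astrocytes, 1.46, 0.442 and 0.413 in DRG and 107, 115 and 122 in OPC. Astrocytes replicate 1 stood highest, and all Astrocytes libraries were above all OPC libraries. In DRG it was 340-fold lower than in Astrocytes (log2 −8.41, SE 0.61, adjusted p = 6.87e-06) and 154-fold lower than in OPC (log2 −7.26, SE 0.58, adjusted p = 1.41e-05). Without DRG replicate 1 these were 584-fold and 266-fold. The difference between OPC and Astrocytes, −1.15 on the log2 scale (SE 0.44), did not pass (adjusted p = 0.0522). It did pass with DESeq2 (adjusted p = 0.0245), and without Astrocytes replicate 2 (0.0333) or DRG replicate 1 (0.0135).

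Sox8, a SoxE gene that backs up Sox9 and Sox10 in the oligodendrocyte lineage, has 3 exons on chromosome 17 (25565893 to 25570686, minus strand). It had 27.8, 48.4 and 108 CPM in Astrocytes, 0.914, 0.526 and 0.207 in DRG and 526, 223 and 291 in OPC. The groups did not overlap, although Astrocytes spread over 3.9-fold from replicate 1 to replicate 3. OPC were 5.64-fold above Astrocytes (log2 2.50, SE 0.58, adjusted p = 0.00614). DRG were 114-fold below Astrocytes (adjusted p = 6.16e-05) and 644-fold below OPC (adjusted p = 2.02e-05). Without Astrocytes replicate 3 the first became 9.09-fold and the second 71.1-fold.

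Sox10, which acts in the oligodendrocyte lineage and activates myelin genes, has 4 exons on chromosome 15 (79154913 to 79164490, minus strand). It had 0.583, 1.07 and 2.76 CPM in Astrocytes, 9.24, 4.21 and 16.3 in DRG and 746, 377 and 425 in OPC. It was the only member with all Astrocytes libraries below all DRG libraries, and OPC stood far above both. OPC were 356-fold above Astrocytes (log2 8.48, SE 0.81, adjusted p = 6.5e-05) and DRG 52.1-fold below OPC (log2 −5.70, SE 0.71, adjusted p = 0.000145). DRG were 6.83-fold above Astrocytes (log2 2.77, SE 0.65, adjusted p = 0.00482). Replicate 3 held 100 of the 176 Astrocytes counts, and without it the log2 difference was 9.29 for OPC and 3.58 for DRG.

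Markers of other glia varied between libraries too. A list of Schwann cell and satellite glia genes summed to 3107 to 8279 CPM in DRG, 686 to 1181 in Astrocytes and 1504 to 2626 in OPC. Most of the DRG sum was Ngfr, which sensory neurons express too, at 2895, 7945 and 6758 CPM in replicates 1 to 3. In these libraries Sox10 had 9.24, 4.21 and 16.3 CPM. The neuregulin receptor gene Erbb3 had 4.03, 3.22 and 8.34, the neural crest factor Foxd3 2.44, 1.01 and 3.00 and the Schwann cell cadherin Cdh19 6.57, 2.23 and 9.66, with the highest value in replicate 3 and the lowest in replicate 2, as for Sox10. The glial lipid carrier Fabp7 (8.73, 2.84 and 4.85) was highest in replicate 1, and Ngfr and the myelin gene Pmp22 (182, 318 and 199) in replicate 2, the library with the least Sox10. Of 8 genes of the list, replicate 3 was highest for 4, and replicates 1 and 2 for 2 each. Among those 4, Prx had only 3, 0 and 7 counts in DRG replicates 1 to 3. Cdh19 was on average no higher in DRG (6.15 CPM) than in OPC (6.26), with 4.26 in Astrocytes. Erbb3 and Foxd3 averaged higher in DRG than in both glial groups. Foxd3 had 0 counts in OPC.

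In OPC, Sox1, Sox3 and Sox9 were highest in replicate 3 and Sox2 in replicate 2. Replicate 1 was highest for Sox4, Sox6, Sox8, Sox10, Sox11 and Sox21. The OPC marker list summed to 10864 CPM in that library, and to 7475 and 7152 in replicates 2 and 3. Gpr17, a gene of precursors about to differentiate, had 786, 9.44 and 9.84 CPM, and Myrf, a myelin gene activator, 63.8, 5.41 and 6.14. Olig2 was lowest in OPC replicate 1 (1234, 1285 and 1463 CPM in replicates 1 to 3), and Olig1 had 2545, 2494 and 3043. In Astrocytes, where replicate 3 was highest for Sox10, the OPC marker list summed to 1595, 2461 and 2524 CPM. Of its 10 genes, 5 were highest in Astrocytes replicate 3, 2 in replicate 1 and 2 in replicate 2, and Lhfpl3 had 0 counts. The part of these other cells or states in the SOX levels was not tested. Apart from the list leaders, the genes named here for other glia were chosen after their values were seen.

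**Figure D3:**
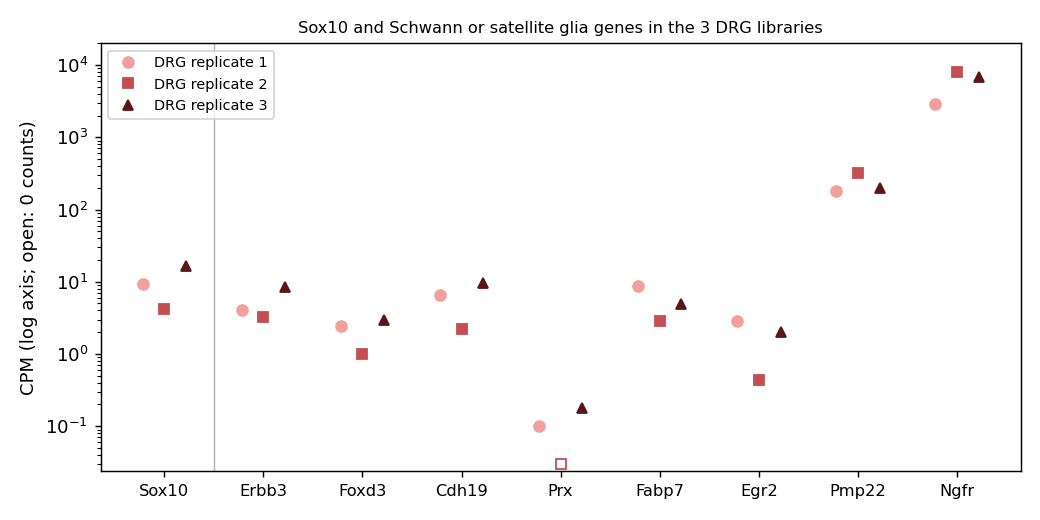
Level in CPM, on a log axis, of Sox10 and 8 genes of the Schwann cell and satellite glia list in the 3 DRG libraries, with 1 point per library; an open marker at the lower edge is a library with 0 counts. Replicate 3 is highest for Sox10 (16.3), Erbb3, Foxd3, Cdh19 and Prx, replicate 1 for Fabp7 (8.73) and Egr2, and replicate 2 for Pmp22 (318) and Ngfr (7945).

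Sox9 led SoxE in Astrocytes, and Sox10 led it in OPC and DRG. Sox9 took 73.2 ± 16.3% of the summed SoxE CPM per kilobase in Astrocytes, Sox8 26.1 ± 15.8% and Sox10 0.686 ± 0.464%. In OPC, Sox10 took 56.9 ± 1.34%, Sox8 33.9 ± 3% and Sox9 9.11 ± 3.24%. Sox10 took 88.6 ± 7.54% in DRG, of a sum of 4.03 CPM per kilobase, where the sum was 82.3 in Astrocytes and 334 in OPC. The Sox9 share in Astrocytes was 90.7, 70.2 and 58.6% in replicates 1 to 3, the widest spread among the glial shares.

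**Figure D4:**
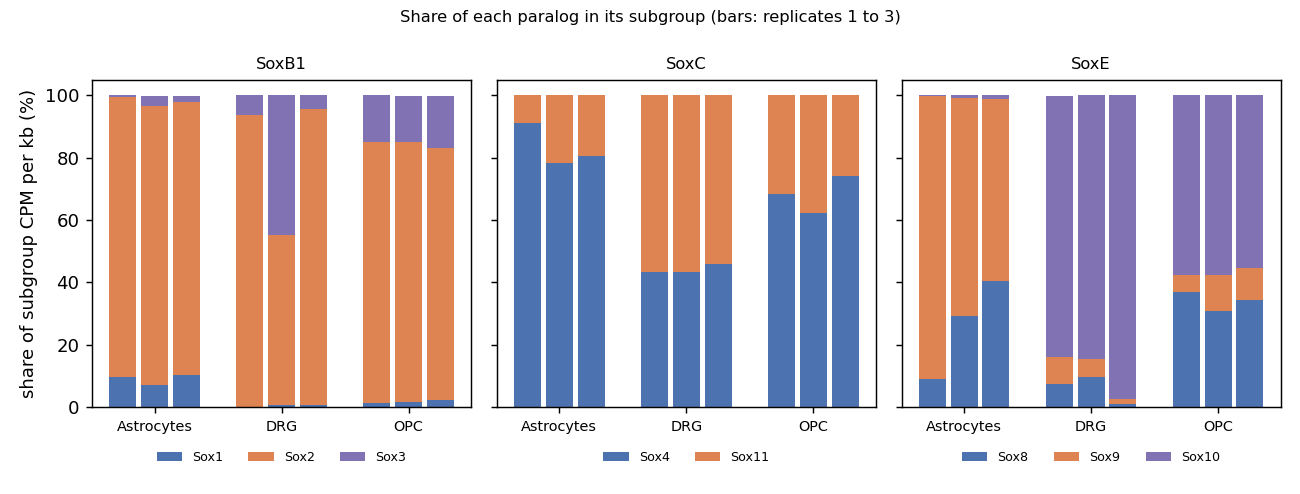
Share of each gene in the summed CPM per kilobase of its subgroup, in percent, with 1 stacked bar per library (replicates 1 to 3 from left to right). Sox2 fills most of SoxB1 in both glial groups, Sox9 leads SoxE in Astrocytes (73.2% on average) and Sox10 in OPC (56.9%) and DRG (88.6%), and the SoxC share of Sox4 goes from 83.4% in Astrocytes to 44.1% in DRG.

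Sox4, a SoxC activator of genes of immature neurons that is also found in precursor cells, is a single exon on chromosome 13 (28948919 to 28953699, minus strand). It had 70.9, 90.9 and 104 CPM in Astrocytes, 46.7, 18.9 and 23.6 in DRG and 354, 237 and 267 in OPC. No groups overlapped. OPC were 3.23-fold above Astrocytes (log2 1.69, SE 0.34, adjusted p = 0.003). DRG were 2.98-fold below Astrocytes (log2 −1.58, SE 0.34, adjusted p = 0.00326) and 9.63-fold below OPC (log2 −3.27, SE 0.36, adjusted p = 7.5e-05).

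Sox11, the other SoxC gene, promotes neuronal differentiation and regrowth of sensory axons and is a single exon on chromosome 12 (27334268 to 27342718, minus strand). Its levels were 11.8, 43.8 and 43.3 CPM in Astrocytes, 107, 43.0 and 48.1 in DRG and 283, 247 and 160 in OPC. DRG replicate 1 stood apart upwards and Astrocytes replicate 1 downwards, and these groups overlapped. Between DRG and Astrocytes the difference of 1.00 on the log2 scale (SE 0.52) did not pass (adjusted p = 0.123). OPC were 6.97-fold above Astrocytes (log2 2.80, SE 0.55, adjusted p = 0.00256). DRG were 3.49-fold below OPC (log2 −1.80, SE 0.53, adjusted p = 0.0152), and this call was lost without DRG replicate 2 (adjusted p = 0.0577) or DRG replicate 3 (0.0569).

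Sox4 made up 83.4 ± 6.94% of the Sox4 and Sox11 CPM per kilobase in Astrocytes, 68.4 ± 5.95% in OPC and 44.1 ± 1.58% in DRG. Its share was 43.2, 43.2 and 45.9% in the DRG libraries although both genes were 2.48-fold higher in replicate 1 than in replicate 2. The summed level was 22.4 CPM per kilobase in Astrocytes, 14.1 in DRG and 87.3 in OPC.

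Sox6, on chromosome 7 (115470872 to 116040776, minus strand), has 6 accessions, so its counts cover reads of single isoforms and its level cannot be set beside those of the other genes. It had 6.77, 4.70 and 6.16 CPM in Astrocytes and 7.76, 7.10 and 5.25 in OPC, and its DRG counts were 0, 0 and 1. The glial groups overlapped (log2 0.19, SE 0.39, adjusted p = 0.714). Counts per TMM-adjusted library size were 688 times as high in Astrocytes as in DRG (95% counting interval 123 to 27205, adjusted p = 7.84e-06) and 781 times as high in OPC (140 to 30897, adjusted p = 9.47e-06). Without DRG replicate 3, the only library of DRG with a count, Sox6 was at least 153-fold lower there than in Astrocytes and at least 173-fold lower than in OPC, against the floor of 3 counts over the group.

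**Figure D5:**
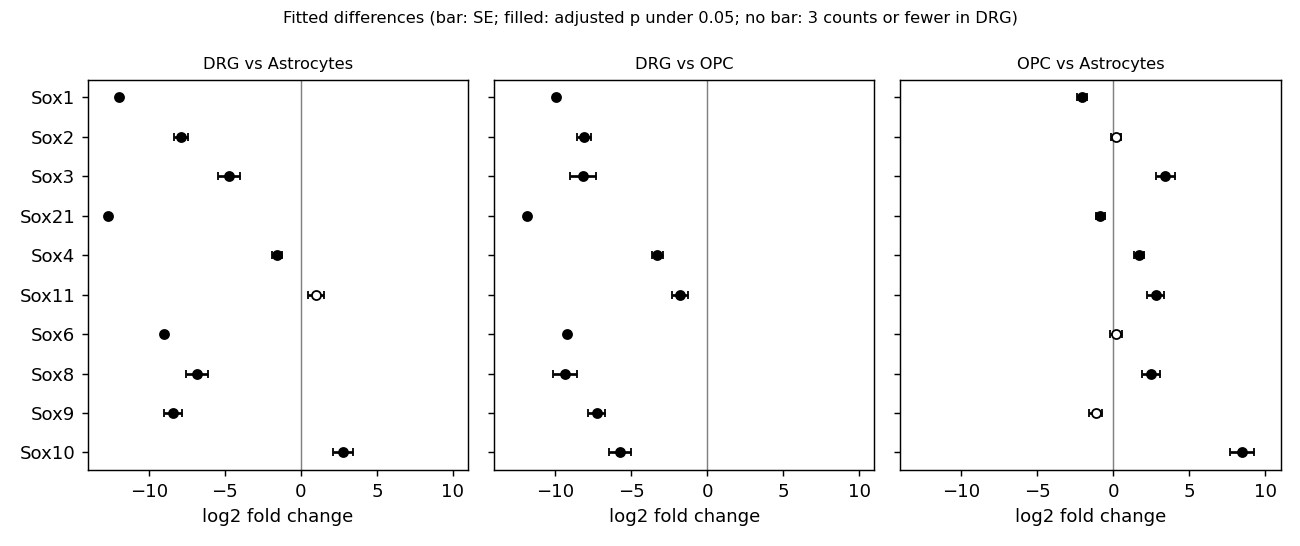
Fitted log2 difference of each SOX gene in DRG against Astrocytes, DRG against OPC and OPC against Astrocytes, with bars for the SE; filled points passed the test and open points did not, and genes with 3 counts or fewer in DRG have no bar there. All points are left of 0 in DRG against OPC, and Sox10 (2.77) and Sox11 (1.00, open) are right of 0 in DRG against Astrocytes.

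Ordered by mean CPM per kilobase, Sox2 (163) and Sox9 (61.2) led in Astrocytes. Sox8 (20.5), Sox21 (19.8), Sox4 (18.5) and Sox1 (16.7) followed without separating from their neighbours beyond the spread of the libraries, then Sox11 (3.97) and Sox3 (3.26), which overlapped, and Sox10 (0.543). In OPC, Sox10 (190) and Sox2 (186) overlapped at the top, followed by Sox8 (116), Sox4 (59.6) and Sox3 (35.1). Sox9 (27.7) and Sox11 (27.6) overlapped next, before Sox21 (11.1) and Sox1 (4.08). The DRG order was Sox11 (7.93), Sox4 (6.20) and Sox10 (3.66), whose ranges overlapped from each to the next, then Sox2 (0.700), Sox9 (0.186), Sox8 (0.183) and Sox3 (0.116), which also overlapped with their neighbours, and Sox1 and Sox21 near 0.

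Annotated neighbours could add to some of these counts, or lower them where reads shared with a counted neighbour were left ambiguous. Exons of Sox4, Sox8 and Sox21 overlap exons of Gm26735, 2810468N07Rik and Gm4675 on the opposite strand, and Sox1 overlaps Gm25239 on its own strand. The strand setting of the counting is not given in the sources used here, so reads of opposite-strand partners cannot be told apart where these exons overlap.

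Of the 10 remaining SOX genes of the mouse, 5 had enough counts to be tested, and Sox12 and Sox13 reached 5 CPM in a cell type. Sox12, the third SoxC gene, had 26.7, 35.2 and 34.0 CPM in Astrocytes, 85.5, 35.4 and 32.1 in DRG and 200, 161 and 208 in OPC, an order like that of Sox11. OPC stood above Astrocytes by 2.57 on the log2 scale (SE 0.37, adjusted p = 0.000516) and DRG below OPC by a log2 difference of −1.89 (SE 0.36, adjusted p = 0.00164), while DRG and Astrocytes did not pass (log2 0.67, adjusted p = 0.125). Without DRG replicate 1 the fall from OPC to DRG was 5.61-fold, where it was 3.72-fold with all libraries. Sox13, a SoxD gene, had 27.9, 11.9 and 13.1 CPM in Astrocytes, 2.03, 1.94 and 2.30 in DRG and 10.2, 8.57 and 7.36 in OPC. DRG were 8.43-fold below Astrocytes (adjusted p = 0.000144) and 4.16-fold below OPC (adjusted p = 0.00117). The call between OPC and Astrocytes (log2 difference −1.02, adjusted p = 0.0376) was lost without Astrocytes replicate 1 (adjusted p = 0.146), and without any single OPC library (0.0535 to 0.0989) or without DRG replicate 2 (0.0553) or 3 (0.0539). Sox14, Sox17 and Sry had 0 counts in all 9 libraries. Sox17 has 5 accessions, whose shared reads were not assigned, so its 0 says nothing of its level.

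Genes known to work with SOX factors or to be their targets were read beside them. Of 11 SoxB1 partner and neural precursor genes, 10 were tested. Against Astrocytes 8 of them were lower in DRG, against OPC all 10, and none was higher in DRG in either comparison, while 3 were higher and 4 lower in OPC than in Astrocytes. Of all genes tested, 32.8% were lower in DRG than in Astrocytes and 31.1% lower than in OPC, and 26.3% were higher and 25.5% lower in OPC than in Astrocytes. The list's median log2 difference was −6.03, −5.81 and −0.15 in these 3 comparisons. Pou3f3, a POU factor that binds beside Sox2, was like Sox2 far lower in DRG than in both glial groups. It had 132, 170 and 174 CPM in Astrocytes, 0.102, 0.253 and 0.387 in DRG and 187, 211 and 189 in OPC. Within Astrocytes and within DRG, replicate 1 was lowest for Pou3f3 and highest for Sox2. The intermediate filament gene Nes was 57.9-fold lower in DRG than in Astrocytes (adjusted p = 7.52e-05, 92.1-fold without DRG replicate 1), and Msi1, which codes for a progenitor RNA-binding protein, 21.0-fold (adjusted p = 1.9e-05). Fabp7 was 109-fold lower in DRG than in Astrocytes (adjusted p = 1.52e-05).

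All 6 nuclear factor I genes and joint targets of Sox9 and Nfia were tested. The nuclear factor I genes have 3 to 5 accessions each, so their counts cover isoform-specific reads only. In DRG 5 were lower than in Astrocytes and 6 lower than in OPC, and in OPC 2 were higher than in Astrocytes, where Sox9 did not pass. The same shares of all genes apply, 32.8%, 31.1% and 26.3%, the last near the 2 of 6 here. The list's median log2 differences were −3.98, −4.77 and 0.73. The calls in OPC were Apcdd1 and Zcchc24 (log2 0.82, adjusted p = 0.0476), and Zcchc24 lost it with DESeq2 (0.0615) and without any single glial library (0.0735 to 0.125). Zcchc24, such a joint target, had 470, 568 and 547 CPM in Astrocytes, 10.3, 4.88 and 12.4 in DRG and 1083, 849 and 860 in OPC. Its fall from Astrocytes to DRG was 57.5-fold (adjusted p = 3.59e-06). Mmd2, another, had 19.8 CPM in DRG replicate 1, where Sox9 was also highest, and 0.990 and 0.878 in replicates 2 and 3. Its fall from Astrocytes to DRG was 12.4-fold (adjusted p = 0.0165) and 94.2-fold without that library.

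Of 14 Sox10 partners and targets, 12 were tested, and 6 were higher and none lower in OPC than in Astrocytes (median log2 difference 2.43). The 6 of 12 called compare with 51.8% of all genes called in either direction, 26.3% higher and 25.5% lower. Olig2, a partner of Sox10 in the oligodendrocyte lineage, had 46.4, 148 and 179 CPM in Astrocytes, 0, 0.463 and 0.362 in DRG and 1234, 1285 and 1463 in OPC. Olig1 had 223, 977 and 1004 CPM in Astrocytes and 2494 to 3043 in OPC, a difference that did not pass (log2 1.88, adjusted p = 0.0637). It did pass with DESeq2 (0.0422), with only the compared libraries (0.0293) and without DRG replicate 1 (0.0305) or 2 (0.0289). Cspg4, the NG2 proteoglycan gene, was 46.1-fold higher in OPC than in Astrocytes (adjusted p = 0.000101). In DRG 4 of the list were higher and 4 lower than in Astrocytes (of all genes, 27.4% and 32.8%), and 2 higher and 8 lower than in OPC (28.4% and 31.1%), with medians of −1.08 and −3.02. Mbp, a myelin gene with 8 accessions, was 18.0-fold higher in DRG than in Astrocytes (adjusted p = 0.00025), and 37.3-fold without Astrocytes replicate 1. Its counts cover isoform-specific reads only. Between DRG and OPC its difference of 1.19 on the log2 scale did not pass (adjusted p = 0.0685). It passed under some alternatives, among them DESeq2 (0.0219) and only the compared libraries (0.00151).

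Of 6 genes known as SoxC targets in neurons, 5 were tested, and 4 were higher and none lower in OPC than in Astrocytes (of all genes, 26.3% and 25.5%). In DRG 2 were higher and 2 lower than in Astrocytes (27.4% and 32.8% of all genes), and 2 higher and 3 lower than in OPC (28.4% and 31.1%). The list's median log2 differences were 2.83 in OPC against Astrocytes, 4.58 in DRG against Astrocytes and −3.74 in DRG against OPC. Neurod1, a neuronal differentiation factor and 1 of the 2 higher than in OPC (adjusted p = 0.0272), lost that call when DRG replicate 1 (0.123), or replicate 2 (0.0961) or 3 (0.0642) of OPC, was left out. Tubb3, the neuronal tubulin gene, had 8.39, 17.9 and 13.7 CPM in Astrocytes, 5458, 6226 and 7276 in DRG and 67.8, 87.8 and 127 in OPC. Its order thus differed from that of Sox4 and Sox11, which were highest in OPC. Prox1, a factor of newborn neurons and oligodendrocyte precursors, had 1.84, 3.94 and 2.90 CPM in Astrocytes, 0.203, 0.337 and 0.155 in DRG and 20.1, 18.7 and 16.6 in OPC. Map2, with 2 accessions, was listed at 0.372, 0.295 and 0.723 CPM in DRG and 19.5, 20.8 and 27.3 in Astrocytes, counts of isoform-specific reads only.

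Over the 9 libraries, log2 CPM of the members ran together in some pairs and not in others. Pearson's r was 0.994 for Sox2 and Sox6, 0.990 for Sox1 and Sox21, 0.988 for Sox9 and Sox21 and 0.919 for Sox10 and Sox11. It was −0.058 for Sox1 and Sox11 and 0.011 for Sox1 and Sox10. The 9 points come from 3 cell types, so these values mainly describe the order of the cell types. Among 9961 genes with a mean of at least 5 CPM, the closest to Sox1 were Gas1 (r = 0.9981), Nr2e1 (0.9971) and Rbm24 (0.9964), and to Sox2 Npas3 (0.9958), Zfp36l1 (0.9955) and Ctdsp2 (0.9953). The closest to Sox3 was Prox1 (0.9950), to Sox4 Zfp362 (0.9947), to Sox6 2900092D14Rik (0.9993), to Sox8 Cxxc1 (0.9942) and to Sox9 Hmgn3 (0.9958). Zfp668 was the closest to Sox10 (0.9854), Hdac2 to Sox11 (0.9857) and Cmtm4 to Sox21 (0.9978). Being alike in order did not mean being alike in size: Zfp668 had 12.5, 16.0 and 23.2 CPM on average in Astrocytes, DRG and OPC, where Sox10 had 1.47, 9.92 and 516.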

How the data were processed

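Each deposited file lists raw counts of reads by RefSeq transcript, with no normalization by the authors. The submitters' processing notes name TopHat2, HTSeq and the mouse build mm10; versions, counting mode and strand setting are not given in the sources used here. Reads shared by isoforms were left ambiguous (22 to 24.7% of reads per library), and 53.1 to 62.9% were assigned. The 5 rows of HTSeq totals were left out. Gene names came from RefSeq on GRCm38.p6, the mm10 assembly, for 33315 of the 33787 accessions and from GENCODE vM21 for 193, and 279 kept their identifier. Counts were added per gene.

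Genes kept by filterByExpr (minimum count 10) were tested with edgeR 4.0.16 in R 4.3.3: TMM factors, 1 quasi-likelihood model over the 9 libraries with a term for each cell type (6 residual degrees of freedom), and Benjamini-Hochberg adjustment over 14848 genes. Each SE is the log2 difference divided by the square root of F, given where both groups had over 30 counts, and is no standard error from the fit. Where a group had 1 to 3 counts, the ratio of counts per effective library size is given with an exact 95% binomial interval; a floor is 3 counts over a group. CPM per kilobase used GENCODE vM21 transcript lengths. For Sox1 the length of 4832 bases was longer, and for Sox2 that of 2057 bases shorter, than the single-exon span given above. Shares within SoxB1 and the order of genes per kilobase are therefore approximate. No libraries held identical counts. The edgeR fit was tested on simulated data, in DRG against Astrocytes.

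The members, gene lists and tests were chosen with earlier results of these data known. All members are named; of other SOX genes, those with 5 CPM in a cell type; of each partner or target list, at most the 4 most abundant; and for likeness the genes with the highest correlation of log2 CPM (prior count 2). HMG box identity had been planned on proteins and was computed on coding DNA. Alternatives were other scaling, no filter, DESeq2 1.42.0, only the compared libraries, the accession with the most counts, a replicate block and leaving out libraries; for genes outside the members these were added after seeing the data.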

Additional observations from a re-analysis of the deposited data

How the results depend on the processing

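Over 17 alternatives, 497 of 510 refits of the 30 member differences kept their direction and their side of the threshold, 6 lost a call, 6 gained one and 1 reversed. The call changes were those of Sox21 and Sox9 in OPC against Astrocytes and of Sox11 in DRG against OPC. Sox9 also passed with DESeq2 size factors (adjusted p = 0.0411), library size alone (0.0465) and only the compared libraries (0.0182), and Sox21 was also lost without both Astrocytes replicate 1 and OPC replicate 3 (0.0721). Sox6 in OPC against Astrocytes, at 0.19, was −0.24 (adjusted p = 0.688) when the accession with the most counts stood for the gene. Library size alone moved the median log2 difference of all genes from −0.13 to −0.39 in DRG against Astrocytes and from −0.08 to −0.23 in DRG against OPC, and DESeq2 size factors moved the latter to 0.09. No member call in the comparisons with DRG changed under either scaling.

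With the replicate block, 9, 10 and 7 members and 8747, 8694 and 7421 genes were called in DRG against Astrocytes, DRG against OPC and OPC against Astrocytes, where 8938, 8833 and 7689 genes were called without it. Same-numbered libraries correlated at −0.0357 to 0.128 in their deviations from the group means, and not every library correlated best with its own number. In DRG against Astrocytes each DRG library did (0.0417, 0.0187 and 0.0401). Whether libraries of the same number share more than the number cannot be told from such weak correlations. The block ended the calls of Nes (adjusted p = 0.0798) and Zcchc24 (0.0669) in OPC against Astrocytes and brought 1 for Olig1 (0.0259).

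Without division by transcript length, 13 of 24 subgroup shares moved by more than their SD. In Astrocytes Sox1 took 18.9% and Sox2 79.3% of SoxB1, and Sox4 74.6% and Sox11 25.4% of SoxC. In DRG Sox1 took 1.1% of SoxB1, and Sox4 31.3% and Sox11 68.7% of SoxC. In OPC the values were 4.15% for Sox1, 80.5% for Sox2, 12.8% for Sox9, 52.6% for Sox10, 55.7% for Sox4 and 44.3% for Sox11. The leading gene of each subgroup in each cell type was unchanged.

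Of 1018 refits of the other 20 named genes, 954 kept direction and call, 42 lost a call, 11 gained one and 11 reversed. The reversed ones were differences that did not pass. Apcdd1 in DRG against Astrocytes, at 0.08, was −0.183 with library size alone, −0.188 to 0.356 without single libraries (below 0 without Astrocytes replicate 1 or DRG replicate 3) and −0.079 without both Astrocytes replicate 1 and OPC replicate 3. Nfix in OPC against Astrocytes, at 0.08, was −0.014 with DESeq2 size factors, −0.013 with DESeq2, −0.025 with library size alone, −0.024 with only the compared libraries, −0.116 to 0.232 without single libraries (below 0 without Astrocytes replicate 1 or OPC replicate 3) and −0.224 without both Astrocytes replicate 1 and OPC replicate 3. The causes were not tested. Depth limits Sox1, Sox6 and Sox21 in DRG, where 0 to 1 counts per library fix only a range for the ratio.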
